A study of Mus musculus with 29 samples.

Results

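The 10 genes described here encode regulators of mitochondrial biogenesis, and were followed in tibialis anterior muscle of ageing mice. They were chosen by symbol, Ppargc1a, Ppargc1b, Esrra, Esrrg, Nrf1, Tfam, Ppara, Ppard, Sirt1 and Sirt3, and each matched 1 row of a count table of 22537 genes. The rule is this list of names and sets no threshold on a measured value, although the names were picked with earlier results of these data known. All 10 passed the filter on low counts in both age comparisons.

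Poly-A RNA from the whole tibialis anterior, a fast ankle flexor of the lower leg, was sequenced from 22 male C57BL/6 mice. The 6m group held 7 adult mice of 6 months, the 24m group 7 mice of 24 months, and the 28m group 8 mice that the labels give as 28 months or older. All groups shared strain and sex, came from 1 ageing colony, and had done the same tests of physical function, treadmill and wheel running included, before the muscles were taken. No transgene or drug treatment is listed for any group. A library was made from each 6m mouse for both sequencing runs, so that 6m and 24m formed the first run, 6m and 28m the second, and 29 libraries came from the 22 mice. In the main comparisons age was compared within a run, which means that both age comparisons used libraries of the same 6m mice, and that the replicates of different ages were different animals.

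Mitochondria are built mostly from proteins encoded in the nucleus, and the genes for them are switched on together by a small set of transcription factors. The coactivators PGC-1alpha and PGC-1beta bind no DNA by themselves but dock onto estrogen-related receptors, peroxisome proliferator-activated receptors and nuclear respiratory factor 1, while TFAM, a target of these factors, enters the mitochondrion to package and transcribe its genome. In skeletal muscle this circuit is known for its response to endurance exercise and fasting, and SIRT1, a deacetylase that uses NAD, and the mitochondrial deacetylase SIRT3 are tied to it.

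The libraries held between 17633475 and 33499162 counted reads. The summed level of 7 muscle fibre markers lay between 145143 and 176503 CPM (counts per 1000000 reads, that is the reads of a gene relative to all reads of its library after TMM scaling, which sets the bulk of genes equal between libraries) in every library of the second run, and between 105514 and 174363 CPM in those of the first. The lowest of these belonged to the fifth 24m mouse. The fourth 24m mouse lay far from its group in 3 members, and the first-run library of the fourth 6m mouse far from that mouse's second library in most of them. The 24m fold changes are therefore given with and without both of these mice, each numbered 4 in its group. In whole muscle, fewer cells of a type and less RNA per cell cannot be told apart.

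Positions are those of GENCODE vM21 on GRCm38, which is the mm10 assembly to which the reads were aligned. Ppargc1a spans chr5:51454250-51567726 and Ppargc1b chr18:61298136-61400431, both on the minus strand. The receptors lie at chr19:6910977-6921813 (Esrra, minus strand), chr1:187608791-188214885 (Esrrg, plus strand), chr15:85734983-85802819 (Ppara, plus strand) and chr17:28232700-28301474 (Ppard, plus strand). Nrf1 spans chr6:30047988-30153458 on the plus strand and Tfam chr10:71225464-71238280 on the minus strand. Sirt1 spans chr10:63319005-63381704 and Sirt3 chr7:140863666-140882309, both on the minus strand. Exons of Sirt3 share 418 bases with Ric8a and 342 bases with Psmd13 on the opposite strand, and those of Esrra share 73 bases with Trmt112. The strand setting of the counting is not given in the sources used here, so reads of these overlaps cannot be assigned with certainty.

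**Figure D1:**
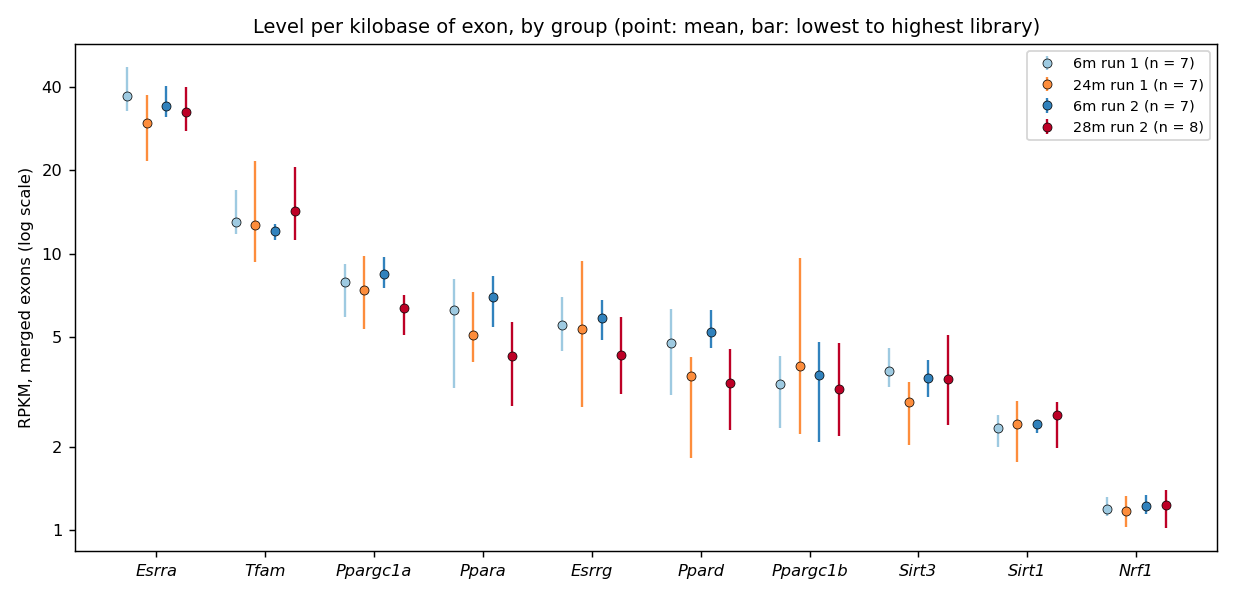
Level of the 10 regulators per kilobase of exon (RPKM, log axis) in the 4 groups. Points are group means and bars run from the lowest to the highest library. Esrra lies above all other members in every group and Nrf1 lowest.

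Per kilobase of merged exon the 10 genes covered a wide range of levels. In the 6m libraries of the second run Esrra, the gene of estrogen-related receptor alpha, stood highest with 34.3 ± 3.05 RPKM (SD, n = 7), followed by Tfam with 12.1 ± 0.577 RPKM. Ppargc1a came next with 8.47 ± 0.762 RPKM, then Ppara with 7.00 ± 0.988 RPKM, Esrrg with 5.84 ± 0.649 RPKM and Ppard with 5.21 ± 0.653 RPKM. From Ppargc1a down to Sirt3 the range of each gene over the 7 libraries overlapped that of the next, while Ppargc1a lay wholly above Esrrg and all genes after it. The lower end was formed by Ppargc1b with 3.63 ± 0.835 RPKM, Sirt3 with 3.55 ± 0.365 RPKM, Sirt1 with 2.43 ± 0.0847 RPKM and Nrf1 with 1.23 ± 0.0703 RPKM. Within a library Ppargc1a exceeded Ppara in 7 of 7, Ppara exceeded Esrrg in 6, Esrrg exceeded Ppard in 5, Ppard exceeded Ppargc1b in 6 and Ppargc1b exceeded Sirt3 in 4. With the longest transcript as the length, Ppard moved from rank 6 to rank 3 and Nrf1 from rank 10 to rank 9, since their merged exons are much longer than any 1 transcript (10282 against 4042 bases for Nrf1).

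The promoters of the regulators are shown because some of them carry elements that bind factors of the same circuit. RefSeq promoter windows on GRCm38.p6 (250 bases before the start to 50 after) were matched for 9 of the 10 genes, all but Ppargc1b, 14 windows in all, of 32851 windows in the table. The 250 bases before the start are printed 5′ to 3′ on the gene's own strand. Capitals mark the elements that were searched on both strands and found, namely the NRF1 element GCGCATGCG, its form GCGCACGCG, the ETS core CCGGAAG that GABP binds, and the E-box CACGTG. The NRF1 element in Ppara matches on both strands at places shifted by 1 base, so its capitals run over both matches. Esrrg has 4 windows, none of which is printed, and its windows ran from 44.7% to 61.3% G and C.
Ppargc1a, chr5:51567726-51567975, minus strand: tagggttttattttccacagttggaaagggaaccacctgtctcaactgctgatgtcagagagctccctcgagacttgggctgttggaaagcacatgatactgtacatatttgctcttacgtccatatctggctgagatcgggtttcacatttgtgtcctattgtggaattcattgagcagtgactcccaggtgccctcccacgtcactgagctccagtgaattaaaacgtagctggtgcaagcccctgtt
Ppara, chr15:85735526-85735775, plus strand: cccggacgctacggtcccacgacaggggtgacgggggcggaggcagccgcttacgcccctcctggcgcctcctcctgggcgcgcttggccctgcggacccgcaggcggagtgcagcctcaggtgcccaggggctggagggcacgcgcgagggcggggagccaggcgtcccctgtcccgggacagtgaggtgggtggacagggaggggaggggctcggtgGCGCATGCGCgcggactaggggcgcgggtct
Ppard, chr17:28232504-28232753, plus strand: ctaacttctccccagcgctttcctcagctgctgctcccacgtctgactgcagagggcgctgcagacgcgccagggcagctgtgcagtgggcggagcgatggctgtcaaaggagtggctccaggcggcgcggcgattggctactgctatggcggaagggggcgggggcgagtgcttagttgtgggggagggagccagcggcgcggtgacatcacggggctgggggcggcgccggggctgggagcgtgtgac
Esrra, chr19:6921809-6922058, minus strand: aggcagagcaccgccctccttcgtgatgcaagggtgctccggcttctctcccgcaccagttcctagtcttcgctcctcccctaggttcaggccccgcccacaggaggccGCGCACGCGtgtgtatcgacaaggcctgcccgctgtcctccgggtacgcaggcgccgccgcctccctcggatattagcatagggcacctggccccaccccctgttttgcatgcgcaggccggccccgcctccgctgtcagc
Tfam, chr10:71238045-71238294, minus strand: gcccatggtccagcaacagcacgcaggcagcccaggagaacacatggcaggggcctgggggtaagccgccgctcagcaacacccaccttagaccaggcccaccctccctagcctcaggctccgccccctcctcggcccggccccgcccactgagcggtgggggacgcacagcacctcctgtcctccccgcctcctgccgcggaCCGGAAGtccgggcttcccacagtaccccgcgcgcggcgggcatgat
Sirt1, chr10:63339036-63339285, minus strand: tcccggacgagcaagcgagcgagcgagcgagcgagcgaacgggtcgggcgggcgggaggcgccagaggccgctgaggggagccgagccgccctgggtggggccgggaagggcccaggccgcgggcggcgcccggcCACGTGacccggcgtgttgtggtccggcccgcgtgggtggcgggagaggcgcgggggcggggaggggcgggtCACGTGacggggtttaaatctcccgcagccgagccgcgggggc

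Ppargc1a had the poorest promoter in G and C of the 6 printed, with 48.7% and 5 CpG in the window of 300 bases, against medians of 52.7% and 7 CpG over all windows. Ppara had 74.7% with 30 CpG, Ppard 68.3% with 27 CpG and Sirt1 79.0% with 47 CpG. The element GCGCATGCG began 31 bases before the start of Ppara, and is present in 1.75% of all windows. The form GCGCACGCG began 141 bases before the start of Esrra (1.79% of all windows). Tfam carried the ETS core 47 bases before its start, 1 window of Sirt3 carried it on the reverse strand at 85 bases, and 8.86% of all windows have it. Sirt1 carried the E-box at 115 and 43 bases before the start (7.15% of all windows). None of the 9 genes with a window had the estrogen-related receptor element TCAAGGTCA in a window, an element present in 0.423% of all windows.

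The first comparison asked how the regulators differed between the oldest and the adult mice. In the 28m group Ppargc1a, Esrrg, Ppara and Ppard were lower than at 6m, and no member was higher. The level of Ppargc1a fell by 26.3% and that of Ppara by 39.8%, with the other two between them. Of the 10 members 4 passed an adjusted p of 0.05 (edgeR's quasi-likelihood test, Benjamini-Hochberg adjustment over 12994 genes), all of them lower and none by as much as 1 on the log2 scale. Over all genes 47.3% passed, 22.9% lower and 24.3% higher, so 4 of 10 is close to the share of genes that differed at this age. The median log2 fold change of the members was -0.15, and that of all genes tested 0.01.

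**Figure D2:**
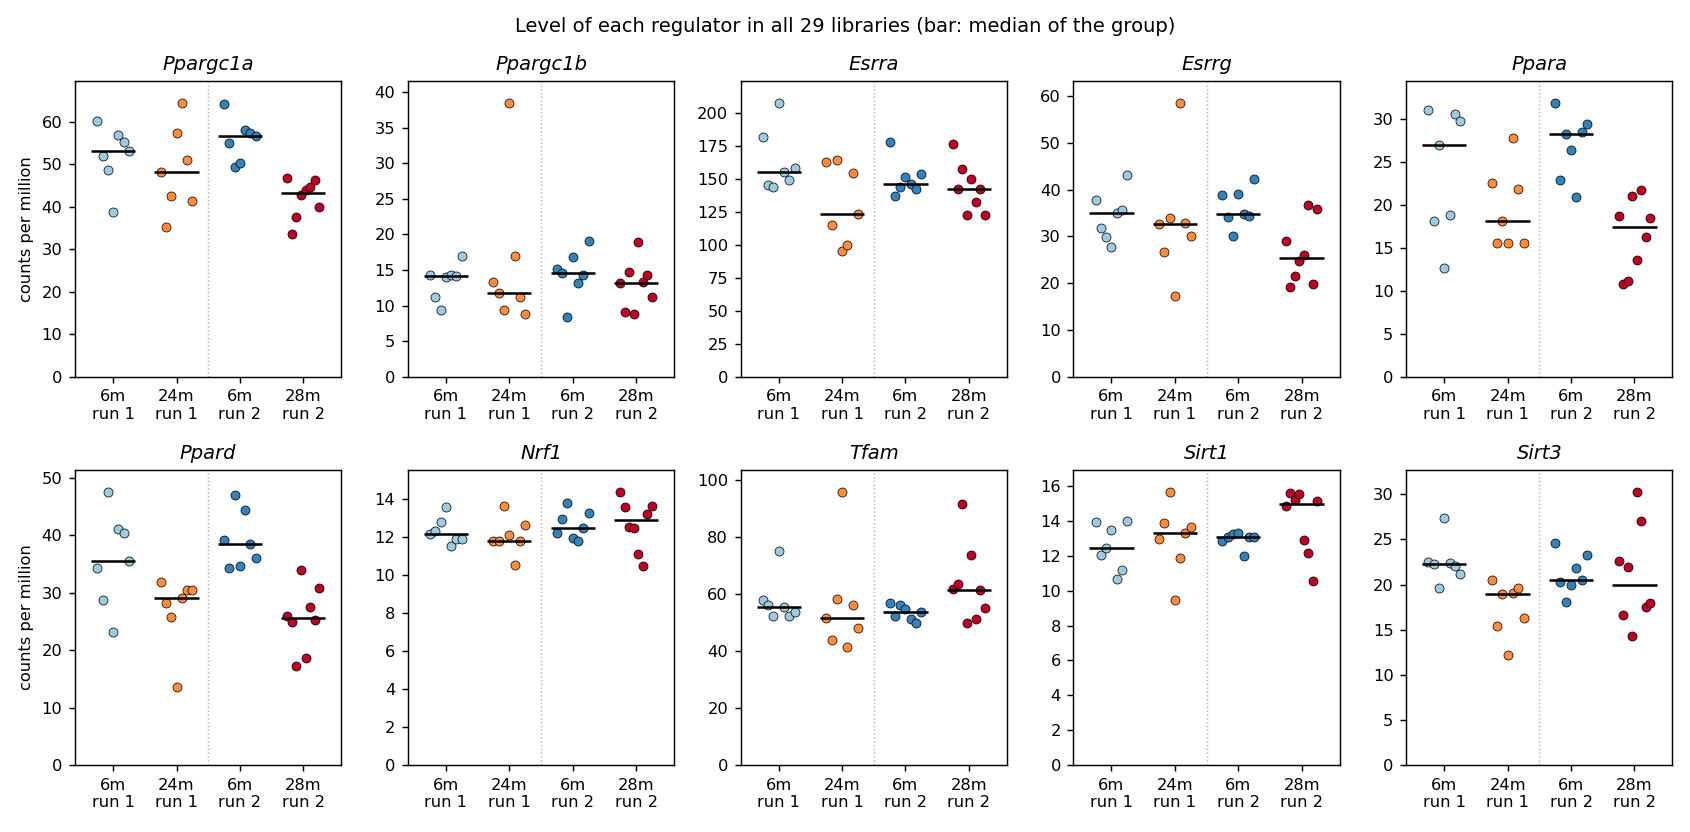
CPM of each regulator in all 29 libraries, with 1 point per library, a bar at the group median and each axis starting at 0. The dotted line separates the runs. The 28m points of Ppargc1a and Ppard lie wholly below the 6m points of the same run, while those of Nrf1 and Sirt3 spread on both sides of them.

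Ppargc1a encodes PGC-1alpha, the coactivator most closely tied to mitochondrial biogenesis in muscle. Its level ranged from 49.4 to 64.2 CPM with a median of 56.7 in the 7 libraries of 6m mice in the second run, and from 33.5 to 46.7 CPM with a median of 43.3 in the 8 of 28m mice. Every 28m mouse lay below every 6m library of that run, a separation in this direction that 6.17% of the genes tested showed. The first-run library of the fourth 6m mouse, at 38.8 CPM, lay inside the 28m range. Ppargc1a fell by 0.44 on the log2 scale (SE 0.0850, adjusted p = 0.001265 in edgeR's test), or by 26.3%. Ppargc1b, the gene of the related coactivator PGC-1beta, ranged from 8.35 to 19.1 CPM (median 14.5) at 6m and from 8.76 to 18.97 CPM (median 13.2) at 28m, an almost complete overlap. Its log2 fold change was -0.19 with a 95% interval from -0.53 to 0.15, which includes the change of Ppargc1a as well as none. The ratio of Ppargc1a to Ppargc1b per kilobase was 2.45 ± 0.607 (SD, n = 7) at 6m and 2.06 ± 0.471 (n = 8) at 28m.

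Among the nuclear receptors, both estrogen-related receptors were expressed, and whether their changes differed from each other was not tested. Esrrg, whose receptor is abundant in oxidative tissues, ranged from 30.2 to 42.2 CPM (median 34.8) at 6m and from 19.2 to 36.7 CPM (median 25.3) at 28m. In 6 of 8 old mice it lay below the whole 6m range, and the other two reached into it. Esrrg fell by 0.47 on the log2 scale (SE 0.143, adjusted p = 0.0137 in edgeR's test). Esrra ranged from 137 to 178 CPM (median 146) at 6m and from 122 to 176 CPM (median 142) at 28m, with 3 of 8 old mice below the 6m range. Its log2 fold change of -0.10 had an interval from -0.27 to 0.07. The ratio of Esrra to Esrrg per kilobase was 5.90 ± 0.548 at 6m, within 5.16 to 6.74, and 8.09 ± 2.26 at 28m, within 4.82 to 10.4, so that the old mice lay on both sides of the adult range.

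Both peroxisome proliferator-activated receptors of the set fell, and with TMM scaling these were the largest changes among the members. Ppara, whose receptor switches on genes of fatty acid oxidation, ranged from 20.9 to 31.8 CPM (median 28.2) at 6m and from 10.8 to 21.7 CPM (median 17.3) at 28m. The groups overlapped only through the 2 highest old mice, with 6 of 8 below every 6m mouse. Ppara fell by 0.73 on the log2 scale (SE 0.156, adjusted p = 0.002119 in edgeR's test), or by 39.8%. Ppard, the gene of the form most used in muscle for the same pathway, ranged from 34.2 to 47.0 CPM (median 38.5) at 6m and from 17.4 to 34.05 CPM (median 25.7) at 28m. All 8 old mice lay below the 6m range of that run, although the highest missed its lower end by little. First-run libraries of the 6m mice went down to 23.3 CPM, inside the 28m range. Ppard fell by 0.64 on the log2 scale (SE 0.134, adjusted p = 0.00203 in edgeR's test).

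Nrf1 encodes nuclear respiratory factor 1, which drives genes of the respiratory chain. It ranged from 11.8 to 13.8 CPM (median 12.46) at 6m and from 10.5 to 14.4 CPM (median 12.9) at 28m, with old mice on both sides of the adult range. Its log2 fold change was -0.02, with an interval from -0.18 to 0.13. Tfam, the gene of the factor that packages and transcribes mitochondrial DNA, ranged from 49.9 to 56.9 CPM (median 53.6) at 6m and from 49.8 to 91.4 CPM (median 61.6) at 28m. It was above the whole 6m range in 5 of 8 old mice and did not pass the test, with a log2 fold change of 0.22 (SE 0.109, adjusted p = 0.112 in edgeR's test).

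The sirtuins did not pass the test either. Sirt1 ranged from 11.97 to 13.3 CPM (median 13.1) at 6m and from 10.6 to 15.6 CPM (median 14.95) at 28m. In 5 of 8 old mice it was above every 6m mouse and in 1 below, with a log2 fold change of 0.08 (interval -0.09 to 0.26). Sirt3 ranged from 18.1 to 24.6 CPM (median 20.5) at 6m and from 14.4 to 30.3 CPM (median 19.9) at 28m, with 4 old mice below and 2 above the 6m range. Its log2 fold change of -0.04 had an interval from -0.32 to 0.24. The first-run libraries of the same 6m mice ran from 10.6 to 13.95 CPM for Sirt1 and from 19.6 to 27.3 CPM for Sirt3, or to 22.5 CPM for Sirt3 without the library of the fourth mouse.

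The values of single old mice differed between members. The third 28m mouse had the highest Tfam, 91.4 CPM, together with the lowest Ppard, 17.4 CPM, and a Ppara of 11.1 CPM. The sixth had the highest Esrrg, 36.7 CPM, and the highest Ppara, 21.7 CPM, of its group. The second had the lowest Ppargc1a, 33.5 CPM, the lowest Esrrg and the lowest Ppara. No single old mouse held the lowest value of all 4 members that fell.

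Levels of other cell types moved in the same comparison. The summed level of 5 endothelial markers was 316 to 340 CPM at 6m and 159 to 254 CPM at 28m, and that of 5 smooth muscle and pericyte markers 279 to 339 and 149 to 289 CPM. A list of 7 denervation response genes went from 35.5 to 63.1 CPM at 6m to 79.9 to 476 CPM at 28m, with 6 of 7 higher. The 7 slow fibre genes went from 79.5 to 128 to 102 to 256 CPM, with 4 of 7 higher. Of the 7 muscle fibre markers, whose sum is given above, 2 were higher and 1, Myh4, was lower. Of 5 fibroblast markers 4 were lower, with summed levels of 528 to 2715 and 301 to 1106 CPM, and 1 of 5 with each library's trend against gene length and GC content removed. In that fit 3 of 5 endothelial markers were lower in place of 4, and 3 of 5 smooth muscle and pericyte markers in place of 4. With the trend removed 7 of 7 denervation response genes and 3 of 7 slow fibre genes were higher. Of the muscle fibre markers 0 were then higher and 1, Acta1, was lower. These counts stand beside 15.6% of all genes lower and 21.6% higher, against 22.9% and 24.3% with TMM scaling. The summed levels of the adipocyte, immune, Schwann and nerve, tendon and erythrocyte lists overlapped between the ages, with 1 Schwann and nerve gene and 1 tendon gene higher and none of the other three lists called. The only markers at 0 were 2 alpha globin genes of the erythrocyte list, in every group. Their part in the differences of the regulators was not tested.

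Fold changes at 28m also followed gene length. Over 12871 genes with a length, Spearman's rho between log2 fold change and exonic length was -0.54, as a description across genes, which are not independent replicates. With each library's trend against exonic length and GC content removed, 37.3% of all genes passed, 15.6% lower and 21.6% higher, and 5 members passed, 4 lower and 1 higher. The 4 were again Ppargc1a (log2 fold change -0.28, adjusted p = 0.02999 in edgeR's test), Esrrg (-0.35, adjusted p = 0.04318), Ppara (-0.74, adjusted p = 0.001801) and Ppard (-0.32, adjusted p = 0.01647). Ppara thus kept its size, while the change of Ppard, with 7514 bases of merged exon, shrank to less than those of Esrrg and Nrf1. The fifth was Nrf1, which turned from -0.02 to 0.36 (adjusted p = 0.01213). Nrf1 is the longest of the set by merged exons, with 10282 bases, but its longest transcript has 4042. That of Ppard has 3726. The trend was fitted on merged exons, and whether these values depend on the choice of length was not tested.

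**Figure D3:**
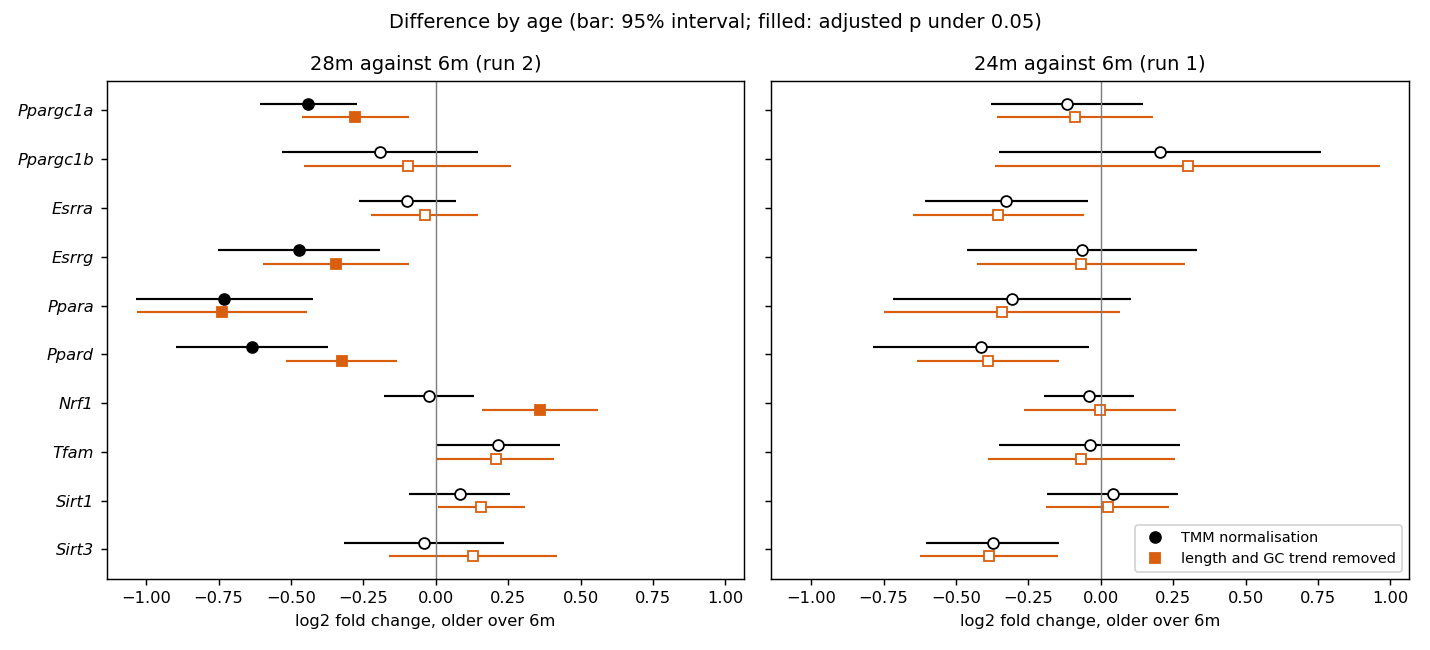
Log2 fold change of each regulator in both age comparisons, older over 6m, with bars of 1.96 standard errors to each side, filled where the adjusted p was under 0.05. Black circles are from TMM scaling and orange squares from the fit with the length and GC trend removed. At 28m, 4 members are filled below 0 in both fits and Nrf1 is filled above 0 in the second, and no point at 24m is filled.

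The second comparison asked whether the same genes already differed at 24m. No member passed an adjusted p of 0.05 in edgeR's test, and over all 13103 genes tested 0.084% did. At an unadjusted p under 0.05 there were 3 members, against 1546 genes in all, and DESeq2 and limma-voom called no member either. No member had all 24m mice below all 6m mice, which 0.229% of genes had.

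Of these 3, Sirt3 showed the clearest shift. It ranged from 19.6 to 27.3 CPM (median 22.3) at 6m and from 12.2 to 20.5 CPM (median 18.96) at 24m, with 6 of 7 mice below the 6m range. Its log2 fold change was -0.37 (SE 0.117, adjusted p = 0.2667 in edgeR's test), and -0.25 without both mice numbered 4. Esrra had -0.33 (adjusted p = 0.4076) and -0.20 without them, with 4 of 7 mice below the 6m range. Ppard had -0.41 (adjusted p = 0.4169) and -0.38 without them.

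Ppargc1a ranged from 38.8 to 60.3 CPM (median 53.1) at 6m and from 35.2 to 64.4 CPM (median 48.2) at 24m, which is overlap at both ends. Its log2 fold change was -0.12, with an interval from -0.38 to 0.15, and -0.21 without both mice numbered 4. Ppara had -0.31 (interval -0.72 to 0.10), and -0.36 without them, and Esrrg -0.06 (interval -0.46 to 0.33), or -0.25 without the fifth 24m mouse, in which it was highest, and 0.0042 without both mice numbered 4. Nrf1, Tfam and Sirt1 had -0.04, -0.04 and 0.04, and -0.018, -0.14 and 0.12 without them. For Ppargc1b the fourth 24m mouse decided the sign, since its 38.5 CPM against 8.86 to 16.96 CPM in the others gave 0.20, and without both mice numbered 4 the value was -0.17. In that mouse the denervation response list reached 928 CPM, against 59.3 to 873 CPM in the other 24m mice, and slow fibre genes 498 CPM, and their part in its values was not tested.

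The difference between the age effects was tested itself. It was largest for Esrrg, Ppara and Ppargc1b, with -0.39, -0.41 and -0.39 on the log2 scale, and for Sirt3 with 0.35 in the other direction. The value of Ppargc1b rested on these mice of the first run, those numbered 4, and was 0.00042 with both left out. No member and none of 13455 genes passed an adjusted p of 0.05 in edgeR's test (0.0% of genes), and at an unadjusted p under 0.05 there were 1611 genes and no member. A change in the 28m comparison is therefore not shown to differ from the 24m one for any regulator.

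The 6m libraries made in both runs show how repeatable a value was. For Ppargc1a the 6 mice other than the fourth differed by at most 0.0929 on the log2 scale between their libraries, against 0.37 for the fourth. For Ppara the fourth mouse differed by 1.06 and the others by at most 0.34. With libraries taken as unpaired, no member differed between the runs at 6m by edgeR's test at an adjusted p of 0.05, nor at an unadjusted p under 0.05, which 357 genes passed and none after adjustment, with the largest fitted shift 0.17 for Ppara (second over first run). With the mouse as a block 1052 genes passed an unadjusted p under 0.05, none of them a member, and none passed after adjustment. Ppargc1a was nevertheless higher in the second library of all 7 mice. Its log2 difference in the blocked fit was 0.11 (adjusted p = 0.4984 in edgeR's test). With the 6m libraries of the first run set against the 28m mice, 2981 of 12984 genes were called in place of 6140 of 12994. Ppargc1a and Ppard remained called, and Esrrg (log2 fold change -0.39, adjusted p = 0.06842 in edgeR's test) and Ppara (-0.56, adjusted p = 0.05864) did not. All 4 were called once the fourth mouse of that run was left out, an alternative chosen after seeing the data.

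The coactivators and receptors work with partner proteins, of which 20 were listed. At 28m 11 of the 20 were lower and 1 was higher, beside 22.9% and 24.3% of all genes (median log2 fold change -0.40), and with the length and GC trend removed 5 were lower and 1 higher, beside 15.6% and 21.6%. Perm1, a muscle regulator induced by PGC-1 and ERR, went from 385 ± 41.4 CPM (SD, n = 7) to 267 ± 66.8 CPM (n = 8) and fell by 0.56 on the log2 scale (adjusted p = 0.004509 in edgeR's test). Rxra, the retinoid X receptor with which both PPARs pair on DNA, fell by 0.83 (adjusted p = 0.001265), which was the largest fall among the called genes of the list, and Esrrb, the third estrogen-related receptor, fell by 0.81 (adjusted p = 0.002617). The corepressor gene Ncor1 fell by 0.49 on the log2 scale with TMM scaling, and had -0.0017 with the trend removed. Gabpa, a subunit of nuclear respiratory factor 2, fell by 0.26 (adjusted p = 0.02367). Pparg rose by 0.55 (adjusted p = 0.03042) from a low level of 2.94 ± 0.649 CPM. With the trend removed neither passed, with -0.19 (adjusted p = 0.05331) for Gabpa and 0.39 (adjusted p = 0.08006) for Pparg. Pprc1, Gabpb1, Yy1, Nrip1, Rxrg and Kat2a did not pass the test, with log2 fold changes from -0.92 for Nrip1, whose standard error was 0.51, to 0.11 for Gabpb1. With the trend removed Gabpb1, another subunit of nuclear respiratory factor 2, was the 1 gene called higher, with 0.39 (adjusted p = 0.0213).

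The machinery that copies and transcribes mitochondrial DNA, in which TFAM works too, held genes called in both directions. Of 16 genes tested 4 were higher and 1 was lower, beside 24.3% and 22.9% of all genes, and 4 and 2 with the trend removed. Polg2 and Ssbp1 were called higher in both fits. Tefm and Rnaseh1 were called only with TMM scaling, and Mterf3 and Mterf4 only with the trend removed. Tefm turned from 0.40 to -0.11. Polg, the catalytic subunit of the mitochondrial DNA polymerase, fell by 0.74 (adjusted p = 0.003326 in edgeR's test), while its accessory subunit Polg2 rose by 0.57 (adjusted p = 0.01046). With the trend removed Polg was still called, with -0.32. Tfb1m, Tfb2m and Polrmt, an rRNA methyltransferase, a transcription factor and the RNA polymerase of mitochondria, had 0.14, -0.22 and -0.25 and did not pass. With the trend removed Tfb2m passed with -0.46 (adjusted p = 0.01759).

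The AMP-activated kinase senses low energy and acts upstream of PGC-1alpha. Of its 7 subunit genes 1 was higher and 2 were lower, beside 24.3% and 22.9% of all genes, and 0 and 2 with the trend removed. Prkab2, the beta subunit most used in muscle, went from 519 ± 40.5 CPM to 281 ± 126 CPM and fell by 0.91 (adjusted p = 0.006508 in edgeR's test), and the catalytic subunit Prkaa2 fell by 0.58 (adjusted p = 0.003903), or by 0.37 with the trend removed. Prkab1 rose by 0.26 (adjusted p = 0.02111), a call lost with the trend removed (0.18, adjusted p = 0.09387), and Prkaa1 and Prkag3 did not pass, with -0.06 and 0.19. Of 13 other sirtuins and genes of NAD supply 2 were higher and 2 lower, beside the same shares of all genes, and 2 and 3 with the trend removed. Sirt5, a mitochondrial deacylase, rose by 0.67 (adjusted p = 0.009776), and Parp1, which consumes NAD, fell by 0.48 (adjusted p = 0.002808), or by 0.32 with the trend removed. Nampt and Nmrk2, of NAD synthesis, had -0.23 and 0.04 and did not pass.

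Known targets of the factors formed the next list. Of 22 listed, 1 was higher and 5 were lower, beside the 24.3% and 22.9% of all genes, and 1 and 4 with the trend removed. The median log2 fold change of the list was 0.0058 with TMM scaling, beside 0.0091 over all genes, and -0.057 with the trend removed. Vegfa, a growth factor for vessels, fell by 0.53 (adjusted p = 0.002782 in edgeR's test) from 329 ± 45.3 to 232 ± 44.2 CPM. Cpt1b, of fatty acid import into mitochondria, fell by 0.89 (adjusted p = 0.01564), from 2.93 ± 0.556 to 1.60 ± 0.758 CPM, which is low. In GENCODE vM21 another gene on the same strand, Gm44502, covers 81.4% of the exonic bases of Cpt1b. The reads were counted with another annotation, and whether it held Gm44502 is not known here. Reads of that stretch cannot be assigned with certainty, so the level and the fall of Cpt1b are uncertain. Slc25a20, the carnitine carrier, rose by 0.26 (adjusted p = 0.03477). Pdk4, Ucp3, Fndc5, Cycs and Cs did not pass, with values from -0.24 for Cs to 0.15 for Cycs.

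**Figure D4:**
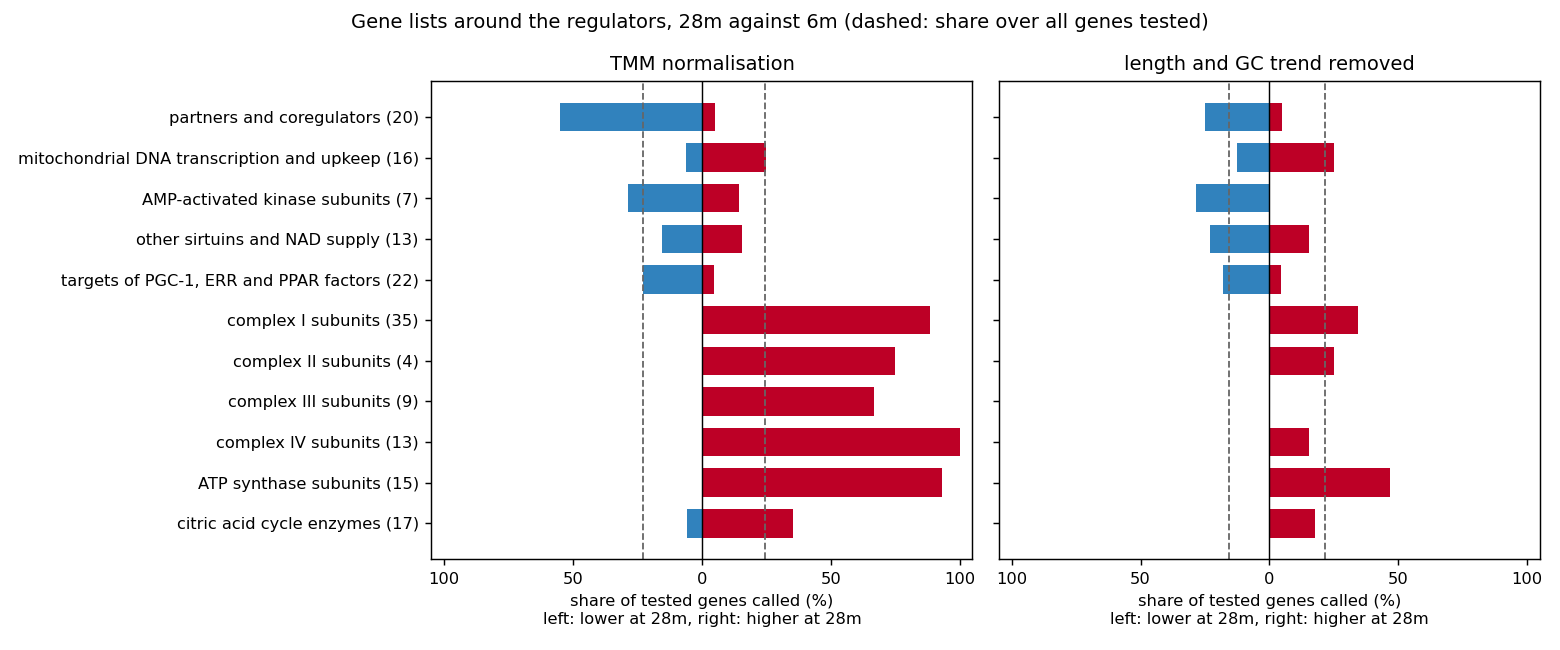
Share of the tested genes of each list that passed an adjusted p of 0.05 at 28m, lower to the left in blue and higher to the right in red, with the number tested in brackets. Dashed lines give the shares over all genes. Respiratory chain and ATP synthase lists stand far to the right with TMM scaling (67 of 76 genes higher) and less so with the length and GC trend removed (22 of 76).

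The genes for the respiratory chain and ATP synthase were mostly higher at 28m with TMM scaling, and fewer of them with the length and GC trend removed. Of 76 nuclear subunit genes tested 67 were higher at 28m and none was lower by edgeR's test, 75 had a value above 0, and the median log2 fold change was 0.58. Their summed level was 25453 to 30421 CPM at 6m and 26728 to 50013 CPM at 28m. By complex, 31 of 35 genes of complex I were higher, 3 of 4 of complex II, 6 of 9 of complex III, 13 of 13 of complex IV and 14 of 15 of ATP synthase, beside 24.3% of all genes. With the trend removed the counts were 12 of 35, 1 of 4, 0 of 9, 2 of 13 and 7 of 15, beside 21.6% of all genes. Among them Cox4i1 rose from 710 ± 48.1 to 1143 ± 408 CPM, or by 0.65 on the log2 scale (adjusted p = 0.009339, and 0.27 with adjusted p = 0.09466 with the trend removed), and Sdha, at -0.08, did not pass. The largest rise of each complex was that of Ndufa2 with 0.99, Sdhb with 0.50, Uqcr11 with 0.76 and Cox6a1 with 0.80, and that of ATP synthase Atp5l with 1.01. The level of Cox6a1 was low, with 17.3 ± 1.67 CPM at 6m. The related Cox6a2, at 674 ± 76.5 CPM, had 0.65, and 0.0025 with the trend removed (adjusted p = 0.9823 in edgeR's test). With the trend removed Ndufa2 had 0.25 and Cox6a1 0.24, Sdhb with 0.23 (adjusted p = 0.1522) and Uqcr11 with 0.14 (adjusted p = 0.248) lost their call, and Atp5l had 1.16. Atp5l stood at 9.65 ± 0.463 CPM at 6m, which is low for its list, and has 6443 bases of merged exon. Whether its level or length bears on its value was not tested.

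These are short genes, with a median exonic length of 1737 bases against 4491 bases over all genes. With the length and GC trend removed 22 of the 76 were higher and none lower, with a median of 0.14, beside 21.6% of all genes higher in that fit. With the 6m libraries of the first run 18 were higher, and 57 once its mouse number 4 was left out, with medians of 0.45 and 0.59. In a fit of all 29 libraries 37 were higher, with a median of 0.61. Leaving out 1 library of the second run at a time gave 62 to 71 higher and none lower. Of 17 citric acid cycle enzymes 6 were higher and 1, Ogdh, was lower (-0.43, adjusted p = 0.02738 in edgeR's test), beside 24.3% and 22.9% of all genes, and 3 and 0 with the trend removed. Of the 6, Sdhb, Sdhc and Sdhd are the complex II genes already counted above. At 24m no gene of any of these lists passed.

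In promoters of the subunit genes the NRF1 element GCGCATGCG was in 8 of 69 windows (11.6%) and the ETS core in 16 of 69 (23.2%), and in the list for mitochondrial DNA upkeep the ETS core was in 8 of 16 windows, beside 1.75% and 8.86% of all windows. These are descriptions of sequence only.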

How the data were processed

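Whole tibialis anterior RNA was enriched for poly-A RNA and made into libraries with the NEBNext Ultra II kit, which were read on a NextSeq 550. The authors deposited 1 table of raw counts per gene, made from reads aligned to mm10 with STAR 2.5.4b and counted by STAR itself. The paper names the UCSC mm10 annotation of Illumina iGenomes for this step. Lengths and overlaps given here are from GENCODE vM21, which may differ from it. The authors' notes also list bcl2fastq 2.20, R 3.5.1 and DESeq2 1.22.2. All 29 columns were matched to samples by title, and 0 were left over. Groups came from the labelled age and run. The series' design text swaps the sizes of the 24m (8) and 28m (7) groups, and the labels were followed. No physical function scores were used.

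Genes were filtered with filterByExpr, scaled by TMM and tested with the quasi-likelihood test of edgeR 4.0.16 (R 4.3.3), with Benjamini-Hochberg adjustment over all genes and a threshold of 0.05. Each age was compared with the 6m libraries of its own run, and the difference of the age effects in a fit of all 29 libraries. Intervals are 1.96 standard errors to each side. Alternatives were DESeq2 1.42.0, limma-voom 3.58.1, other scalings, filters and thinning, removal of each library's trend with exonic length and GC content by natural splines, the 6m libraries of the other run, and leaving out each library. Scripts were tested on simulated data. RPKM used merged exons of GENCODE vM21, which held 20202 genes under their symbol and 1897 under a synonym.

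Depth ran from 17633475 to 33499162 counts per library, and each member had 148 to 4810 counts in a library. The p-values measure the spread between animals, while the 6m libraries of both runs are from the same animals. The members and gene lists were chosen with earlier results of these data known. Named were the 10 members, 30 listed partners and targets fixed by name, and in each list the called gene with the largest rise and fall. A few further genes of the lists are named where calls or levels differed within a list. Amino acid sequences were not used here.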

Additional observations from a re-analysis of the deposited data

Results flagged for a closer look

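In 8 of 40 sets of values (10 genes in 4 groups) the highest or lowest library lay far from the others by Dixon's test at 95%, which chance gives in about 1 in 20. The fourth 24m mouse accounted for 3 of them, with Ppargc1b at 38.5 CPM (8.86 to 16.96 in the others), Tfam at 95.8 CPM (41.6 to 58.2) and Ppard at 13.7 CPM (25.8 to 31.8). The first-run library of the fourth 6m mouse accounted for 2, with Tfam at 75.2 CPM (52.2 to 58.0) and Sirt3 at 27.3 CPM (19.6 to 22.5). The fifth 24m mouse had Esrrg at 58.6 CPM (17.3 to 33.9). In the second run, the first 6m mouse had Esrra at 178 CPM (137 to 154) and the fifth 6m mouse Sirt1 at 11.97 CPM (12.8 to 13.3). No 28m mouse was set apart in this way for any member.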

How the results depend on the processing

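Ppargc1a and Ppard were called lower at 28m under all 11 alternatives and in all 15 fits that left out a library, and Esrrg and Ppara under 10 of 11 and all 15. Counts of called members stayed at 4 (4 to 4) in the latter fits, and at 0 (0 to 0) at 24m, for the difference and between runs. Against the 6m libraries of the other run 2 members were called, and 2981 of 12984 genes in place of 6140 of 12994. With the trend of length and GC removed 5 were. The cause was not tested.

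These values changed sign. At 28m Nrf1 was 0.018 with upper-quartile scaling, 0.36 with the trend removed, 0.023 with the other run, 0.039 with its mouse number 4 left out too and 0.0044 in a fit of all libraries. Sirt3 was 0.0026 and 0.13 under the first and second of these. With the trend removed Cycs was -0.057, Nmrk2 -0.32, Tfb1m -0.0045 and Yy1 0.097, with the other run Cycs was -0.050 and Nmrk2 -0.035, and with limma-voom Nmrk2 was -0.094. At 24m Nrf1 was 0.011 after thinning, and with the other run Tfam was 0.053 and Sirt1 -0.017. Without both first-run mice numbered 4, chosen after seeing the data, Ppargc1b was -0.17 and Esrrg 0.0042 at 24m, and for the difference Ppargc1b was 0.00042 and Sirt1 -0.020. The difference of Ppard was 0.064 with the trend removed.

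Leaving out 1 library at a time, values at 28m ran from -0.049 to 0.011 for Nrf1, -0.13 to 0.022 for Sirt3, -0.24 to 0.015 for Ucp3, -0.16 to 0.14 for Nmrk2, -0.092 to 0.0099 for Fndc5 and -0.055 to 0.25 for Pdk4. At 24m they ran from -0.21 to 0.031 for Tfam, -0.0095 to 0.11 for Sirt1, -0.18 to 0.31 for Ppargc1b and -0.25 to 0.048 for Esrrg. For the difference they ran from -0.49 to 0.0109 for Ppargc1b, -0.0018 to 0.12 for Sirt1 and -0.0096 to 0.079 for Nrf1.

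Mice of different ages were different animals, so that no pairing was possible within an age comparison. With the 6m mouse as a replicate block, 0 members were called for the difference and 0 between runs, as without it. Respiratory chain genes called higher at 28m fell from 67 to 37 in a fit of all 29 libraries.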

Other observations

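The spread of the regulators around their group means was described over the 29 libraries, which include both libraries of each 6m mouse, so points are not independent and no p is given. Over the 45 pairs of members the median Pearson correlation of the deviations in log2 CPM was 0.02, or 0.089 without the fourth mice of the first run, and 23 pairs were above 0 with all libraries. Tfam and Ppard ran most opposite, with -0.84, and -0.67 without the fourth mice of the first run. Esrrg with Ppara had 0.64 and Ppargc1a with Ppara 0.61, and without those mice 0.65 and 0.60. Esrra with Tfam had 0.22, and 0.68 without those mice.

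Of 12942 genes searched, the 3 most like Ppargc1a in these deviations were D11Wsu47e with 0.74, Actn2, a protein of the Z disc, with 0.72, and Homer2 with 0.71. Without the fourth mice of the first run these were 0.65, 0.80 and 0.69, which puts Actn2 ahead of the other two. The most alike gene of each other member was Smarca2 for Ppargc1b (0.85), Adsl for Esrra (0.94), Mybpc1, a slow-type myosin binding protein, for Esrrg (0.90), Nqo1 for Nrf1 (0.77), Acyp2 for Tfam (0.98), Sugp2 for Ppara (0.86), Tns1 for Ppard (0.96), 1110020G09Rik for Sirt1 (0.90) and Uqcrc2, a subunit of complex III, for Sirt3 (0.91). Without those mice Smarca2 had 0.68 with Ppargc1b, and the other 8 genes lay between 0.75 for Nqo1 and 0.95 for Acyp2. These libraries share depth and length trends, whose part in the correlations was not tested.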
